A study of Mus musculus with 36 samples.

Results

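The comparison described here is that of the liver at 10 weeks with the liver at 8 weeks of age. It rests on 8 of the 36 libraries of the series, chosen by their tissue and age labels, with 4 libraries at each age. RNA was sequenced from heart, kidney and liver of wild-type male C57BL/6NCrl mice, an inbred substrain of C57BL/6, at 8, 10 and 12 weeks. The animals were kept on standard chow without restriction under a light/dark cycle, and all of them were anesthetized with ketamine and xylazine before tissue was taken. The time of day at sampling is not given in the sources used here. Each library is a biological replicate of whole frozen liver, so that all cell types of the organ are mixed, and 4 other liver libraries of 12 weeks served only to estimate the spread and as values beside the comparison.

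The liver is built mainly of hepatocytes, which differ in their work along the lobule. Cells near the portal vein favour urea and glucose production, and cells near the central vein favour drug metabolism and glutamine synthesis. In mice, the pulses of growth hormone that come with male puberty set many hepatic genes to a male level and hold female-biased genes down, and a circadian clock sets the daily course of glycogen, lipid and bile acid metabolism. The resident macrophages of the sinusoids, called Kupffer cells, and the acute phase response, in which hepatocytes secrete proteins such as serum amyloid A under inflammatory cytokines, are the main immune features of the organ.

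The 8 libraries held 21031599 to 33637390 read pairs counted on genes. All 15 hepatocyte markers were detected. Their summed level in CPM, counts scaled to the same library total, was 124672 to 167995 at 8 weeks, 131426 in 10-week replicate 2 and 100767 to 113250 in the other 10-week libraries. Of these markers 10 were lower at 10 weeks and none passed the test, with a median log2 fold change of -0.13, or 0.018 when 8-week replicate 4 was left out. Their part in the results below was not tested. The 6 adipocyte markers summed to at most 0.283 CPM, and 5 of 11 exocrine pancreas markers were at 0 in all 8 libraries. Pairs without a place in the genome made up 13% of 10-week replicate 1 and between 2.81% and 9.32% of the others. Levels are given below as CPM scaled by edgeR's TMM factors, and they allow comparison of a gene between libraries, not of genes with each other. A gene passed the test when edgeR's quasi-likelihood test gave a Benjamini-Hochberg adjusted p under 0.05, and it was called when its absolute log2 fold change was also over 1. Fold changes are 10 weeks over 8 weeks on the log2 scale, with standard errors.

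Among the 8 libraries compared, 10-week replicate 2 stood furthest apart. In 10-week replicate 2, 398 of 12127 genes of at least 1 CPM lay more than 2-fold from the mean of the other 10-week libraries (3.28%), against 95 to 159 genes in each of those. It was the library furthest from its group mean for 41.1% of these genes. Its mean correlation with the other 10-week libraries was 0.982, against 0.987 to 0.989 for each of these. Among the 8-week libraries, replicate 4 was the furthest off, with 287 genes (2.37%). Of the 12-week libraries, which entered the estimate of the spread, replicate 1 lay further from its group still. It had 445 such genes (3.67%) and a mean correlation of 0.979, and it was not left out on its own. In the principal components of the 8 libraries, 10-week replicate 2 lay at -50.0 on the second component, on which the other 7 spanned -1.61 to 13.4. On the first component the 8-week libraries lay between -46.1 and -0.29 and the 10-week libraries at 34.5, 4.09, 23.2 and 20.9.

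**Figure D1:**
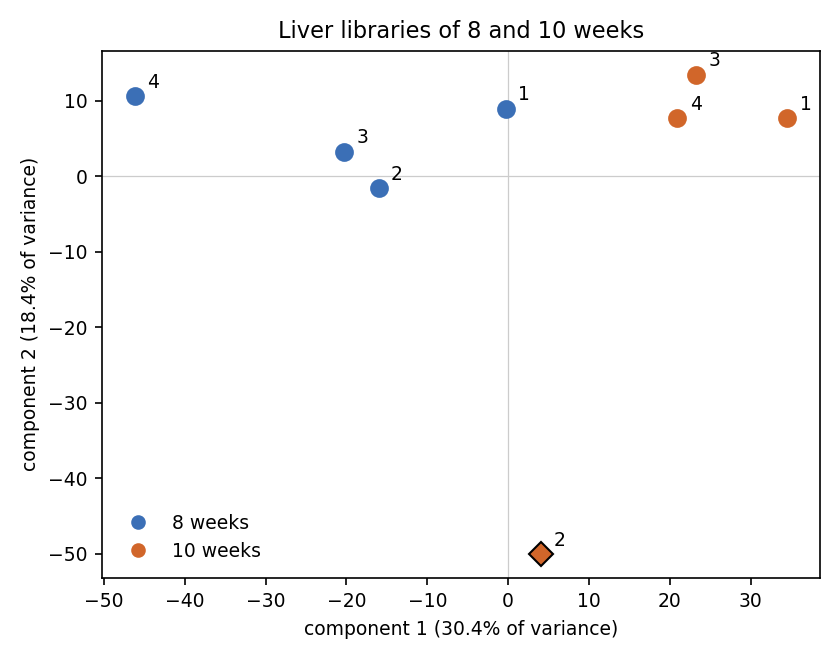
Principal components of the log2 CPM of the 8 liver libraries, with the first component (30.4% of the variance) on the horizontal and the second (18.4%) on the vertical axis. Blue points are 8-week and orange points 10-week libraries, numbered by replicate. The outlined diamond, 10-week replicate 2, sits at -50.0 on the second component, away from the other 7.

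With all libraries, 3 of 14512 genes passed the test, and 2 of them were called. Gm28661, a pseudogene, and Tlcd2, which encodes a plasma membrane protein that limits the uptake of certain lipids into membrane phospholipids, were higher at 10 weeks (0.0138% of the genes tested). Gys2, the liver's glycogen synthase, was lower (0.00689%), with a fold change short of the limit for a call. No gene was called lower by edgeR, while DESeq2 called 46 lower and 55 higher of the 175 (1.21%) and 192 (1.32%) genes past its adjusted p. At an unadjusted p under 0.05 there were 1030 genes higher (7.1%) and 1072 lower (7.39%). Of all genes tested, 7251 had a log2 fold change above 0 (50%) and 7261 below 0 (50%). The libraries of the 2 ages did not overlap for 665 genes higher at 10 weeks (4.58%) and 737 lower (5.08%). The median log2 fold change of all genes was -0.0004.

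Gm28661 had the smallest p of all genes. The 8-week libraries held 15.9, 14.4, 11.7 and 14.4 CPM and the 10-week libraries 48.5, 45.4, 43.0 and 47.8 CPM. The groups did not overlap, and the 12-week libraries, at 44.4 to 48.8 CPM, lay beside those of 10 weeks. The log2 fold change was 1.71 ± 0.10 with an adjusted p of 2.06e-06 (edgeR), and it passed in each of the 21 other settings tried. The gene lies on chromosome 1 at 24653966-24654646 on the minus strand (GRCm39), inside a copy of mitochondrial DNA that spans 24650616-24655269. That copy matches positions 6390-11042 of the mitochondrial genome at 99.936%, and its 2 mismatches and its single gap all lie outside Gm28661. Over its 681 bases the pseudogene has the same letters as mt-Co2, which encodes subunit 2 of cytochrome c oxidase. The first 150 bases of both are shown because they carry this identity, read in the direction of mt-Co2.
Gm28661, chr1:24654497-24654646, minus strand: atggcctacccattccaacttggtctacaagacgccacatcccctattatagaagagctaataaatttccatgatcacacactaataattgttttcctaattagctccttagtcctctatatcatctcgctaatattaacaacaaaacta
mt-Co2, chrM:7013-7162, plus strand: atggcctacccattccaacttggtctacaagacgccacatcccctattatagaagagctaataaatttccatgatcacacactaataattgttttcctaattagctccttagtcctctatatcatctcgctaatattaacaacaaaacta
Since counted pairs needed a single best place in the genome, pairs lying wholly in this stretch could not be assigned from their letters. The annotated mt-Co2 held 7.82 to 11 CPM in the 8 libraries, with a log2 fold change of -0.02 ± 0.12 and an adjusted p of 0.959. The level of Gm28661 is therefore uncertain, and the transcript of origin cannot be told apart. In kidney the same gene stood at 9.23 to 11.2 CPM at 8 weeks and 29.9 to 92.5 CPM at 10 weeks, while in heart it stood at 209 to 292 and 30.2 to 78.2 CPM. The change in liver exceeded that in heart by 4.13 ± 0.60 on the log2 scale (adjusted p = 0.000527, edgeR interaction term), and its difference from kidney was -0.49 ± 0.60 (adjusted p = 0.877). For mt-Co2 the same differences were 0.91 from heart (adjusted p = 0.438) and -2.10 from kidney (adjusted p = 0.146). The latter passed when only the 16 libraries of 8 and 10 weeks of liver and kidney were fitted (-2.11, adjusted p = 4.6e-06).

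Tlcd2 (chromosome 11, 75352541-75361725) held 25.1, 23.1, 26.3 and 17.5 CPM at 8 weeks and 51.3, 55.4, 49.9 and 39.3 CPM at 10 weeks. Each 10-week library was above each 8-week library, and 12 weeks gave 47.5 to 66.3 CPM. It rose by 1.09 ± 0.15 with an adjusted p of 0.0321 in edgeR's test. The call was close to the threshold. When 1 library was left out, the adjusted p was over 0.05 for 6 of the 8 libraries (0.0515 to 0.152), and the fold change stayed between 0.96 and 1.18 over all settings.

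Gys2 (chromosome 6, 142368339-142418841) held 315, 285, 316 and 319 CPM at 8 weeks and 150, 188, 160 and 176 CPM at 10 weeks. Every 10-week library was below every 8-week library, and at 12 weeks the level was again 291 to 371 CPM. Gys2 fell by 0.87 ± 0.10 on the log2 scale (adjusted p = 0.00543, edgeR), and it passed in all 21 other settings.

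**Figure D2:**
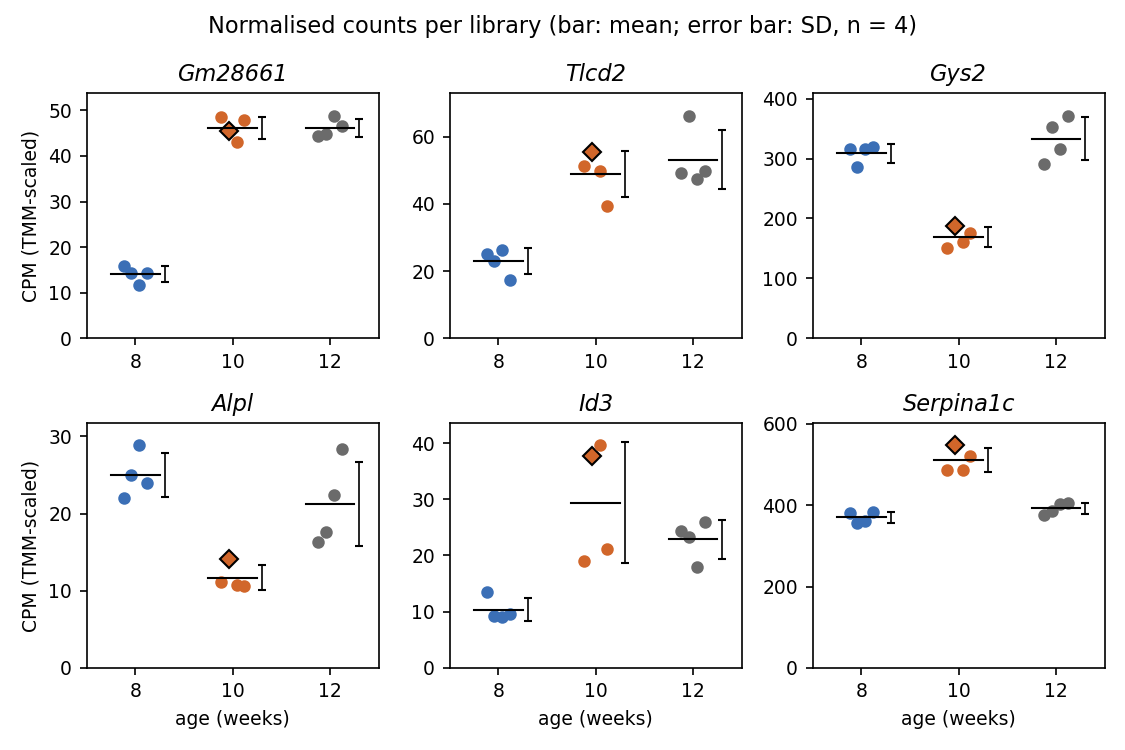
CPM per library (vertical axes, starting at 0) at 8, 10 and 12 weeks for 6 genes, with the mean of 4 libraries as a bar and the SD beside it. For Gm28661, Tlcd2, Id3 and Serpina1c every 10-week library lies above every 8-week library, for Gys2 and Alpl below, and the outlined 10-week replicate 2 lies with or near its group.

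Leaving out 10-week replicate 2 moved the count of genes past the test more than leaving out any other of the 8 libraries. Without it, 55 genes rose (0.381% of 14433) and 34 fell (0.236%), and 25 (0.173%) and 11 (0.0762%) of them were called. Leaving out any other of the 8 libraries gave 1 to 3 higher and 1 lower. The common coefficient of variation between animals was 20.5% with all libraries and 19.2% without it. All 3 genes above passed without it. Of the 89 genes, 89 had the same direction with all libraries, and 64 also passed DESeq2's test there. In 36 of them 10-week replicate 2 lay within the range of the 8-week libraries, and in 64 it was nearer the 8-week mean than the mean of the other 10-week libraries. The 89 genes were picked by leaving this library out. These counts therefore follow in part from that choice and describe the 89 genes only.

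**Figure D3:**
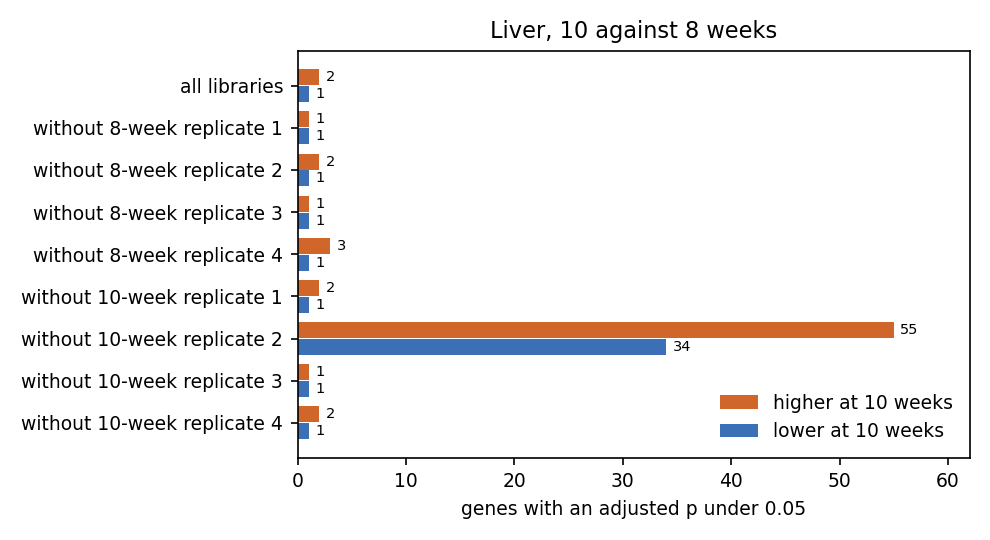
Number of genes with an adjusted p under 0.05 in edgeR's test (horizontal axis) with all libraries and with each of the 8 libraries left out in turn (vertical axis), orange for higher and blue for lower at 10 weeks. The counts are 55 and 34 without 10-week replicate 2 and at most 3 and 1 otherwise.

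Bmal1, Clock and Wee1, genes of the circadian clock or under its control, differed between 10-week replicate 2 and the other 10-week libraries. Bmal1, whose product drives the clock with CLOCK, held 1.2, 1.33, 1.78 and 0.907 CPM at 8 weeks and 6.95, 1.30, 7.41 and 4.37 CPM at 10 weeks. Replicate 2 lay at the 8-week level and the other 3 well above it, and the 12-week libraries were at 1.28 to 1.55 CPM. The log2 fold change was 1.93 ± 0.42 (adjusted p = 0.117) with all libraries and 2.26 ± 0.24 without replicate 2 (adjusted p = 0.00315, edgeR). Without it Clock rose as well, by 0.70 ± 0.12 (adjusted p = 0.029), against a change of 0.53 ± 0.17 with all libraries (adjusted p = 0.197). Wee1, a cell cycle kinase under clock control, held 20.6, 23.2, 22.1 and 22.8 CPM at 8 weeks and 9.77, 18.6, 8.71 and 10.0 CPM at 10 weeks, with no overlap. It changed by -0.91 ± 0.19 with all libraries (adjusted p = 0.117) and fell by 1.22 ± 0.10 without replicate 2 (adjusted p = 0.000315).
Of 15 Period and evening-phase clock genes, 12 were lower at 10 weeks, and none passed with all libraries. Of the 15, 4 were lower without overlap, against 5.08% of all genes. Their median was -0.27, and -0.26 without replicate 2. Usp2, a ubiquitin protease with a strong daily rhythm, held 66.2, 86.1, 90.4 and 113.4 CPM at 8 weeks and 33.4, 56.6, 46.7 and 56.1 CPM at 10 weeks (-0.88 ± 0.25, adjusted p = 0.154). Per1, a repressor of the clock, held 67.2 to 78.5 CPM and 35.1 to 69.0 CPM (-0.49 ± 0.18, adjusted p = 0.247). Of the 6 activator and morning-phase genes tested, 4 were higher, with a median of 0.24. It was 0.22 without 10-week replicate 2 and 0.10 without 10-week replicate 1. For Bmal1, Clock, Wee1, Usp2 and Per1 no difference from the change in kidney or heart passed the edgeR interaction test, which does not show the changes to be equal. Liver minus heart was -0.01 for Bmal1 and -0.02 for Clock on the log2 scale. Liver minus kidney was 0.32 and 0.45 (adjusted p = 0.964 and 0.489). For Wee1, Usp2 and Per1, liver minus heart was -0.45, -0.52 and 0.18, and liver minus kidney was -0.38, -0.46 and 0.24. The hour of sampling was not analysed as a factor, and its part in these values was not tested.

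Male-biased genes of the liver were mostly higher and female-biased genes mostly lower at 10 weeks, and the mean of the male-biased list was lowest, and that of the female-biased list highest, in 8-week replicate 4 and 10-week replicate 2 within their groups. Of 27 male-biased genes tested, 24 were higher, with a median log2 fold change of 0.49. None passed with all libraries, and 1 of 27 was higher without overlap between ages, against 4.58% of all genes. Without 10-week replicate 2 all 27 were higher, the median was 0.66, and 2 passed. Without 8-week replicate 4 the median was 0.22, and without 10-week replicate 1 it was 0.12. As a mean over the list, the 8-week libraries lay 0.39, -0.12, 0.46 and -0.73 from the 8-week mean on the log2 scale and the 10-week libraries 1.35, -0.27, 0.66 and 0.70, so that the ages overlapped. Elovl3, an elongase of very long fatty acids, held 52.3, 60.9, 75.3 and 22.3 CPM at 8 weeks and 276, 18.4, 254 and 270 CPM at 10 weeks. Replicate 2 was the lowest of all 8 libraries, and the other 10-week libraries were above every 8-week library. The log2 fold change was 1.96 ± 0.60 (adjusted p = 0.185) with all libraries and 2.34 ± 0.33 without replicate 2 (adjusted p = 0.0109). Elovl3 was picked because replicate 2 lay far below its group, so the value without that library follows in part from that choice. Mup11 and Mup12, major urinary proteins that carry pheromones, stood at 22.4 to 193 and 364 to 779 CPM, and at 1.77 to 14.2 and 13.2 to 46.6 CPM, at 8 and 10 weeks. Their log2 fold changes were 1.95 ± 0.49 and 1.74 ± 0.47 (adjusted p = 0.136 and 0.149), and since the Mup genes are near-identical copies their levels are uncertain. Hsd3b5, a male-specific steroid dehydrogenase, held 87.6 to 182 CPM at 8 weeks and 224, 28.1, 160 and 184 CPM at 10 weeks, and its log2 fold change was 0.18 ± 0.44 (adjusted p = 0.886), or 0.53 ± 0.22 without replicate 2 (adjusted p = 0.258). Hsd3b5 was picked in the same way as Elovl3.
Of 17 female-biased genes tested, 14 were lower, with a median of -0.99, and 3 of 17 did not overlap, against 5.08% of all genes. Without replicate 2 the median was -1.46, 15 of 16 tested were lower and 2 passed, and without 8-week replicate 4 it was -0.65. The list means lay -0.24, 0.001, -0.67 and 0.91 from the 8-week mean at 8 weeks and -1.48, 0.11, -1.18 and -1.12 at 10 weeks. Nipal1, a magnesium transporter, held 15.7 to 38.9 CPM at 8 weeks and 3.47, 38, 3.56 and 4.90 CPM at 10 weeks, and it fell by 2.7 ± 0.46 without replicate 2 (adjusted p = 0.028), against a change of -1.04 ± 0.70 with all libraries (adjusted p = 0.528). Fmo4 changed by -1.13 ± 0.30 (adjusted p = 0.145). Cyp2a4, a female-predominant steroid hydroxylase, held 18.9 CPM in 8-week replicate 4 and at most 0.798 CPM in the other 7 libraries, so that its change of -5.45 ± 1.43 (adjusted p = 0.145) rested on that library and was -1.92 without it.
Cux2, a female-specific repressor of male genes, was high in 8-week replicate 4 (26.7 CPM) and 10-week replicate 2 (23 CPM), the 2 libraries that were lowest in Elovl3. The other 10-week libraries held 0.203 to 0.363 CPM and the other 8-week libraries 0.192 to 6.35 CPM. In the growth hormone axis, Stat5a and Stat5b, which carry the hormone's signal to the genome, did not overlap between ages, at 4.96 to 7.70 against 8.84 to 11.3 CPM and 35.1 to 55.9 against 62.9 to 66.2 CPM. Stat5a changed by 0.63 ± 0.20 (adjusted p = 0.188) and Stat5b by 0.39 ± 0.17 (adjusted p = 0.316). Of the 17 genes of this axis tested, 11 were higher and 6 lower, with a median of 0.15, and none passed. Without overlap 3 of the 17 were higher and 1 lower, against 4.58% and 5.08% of all genes.

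**Figure D4:**
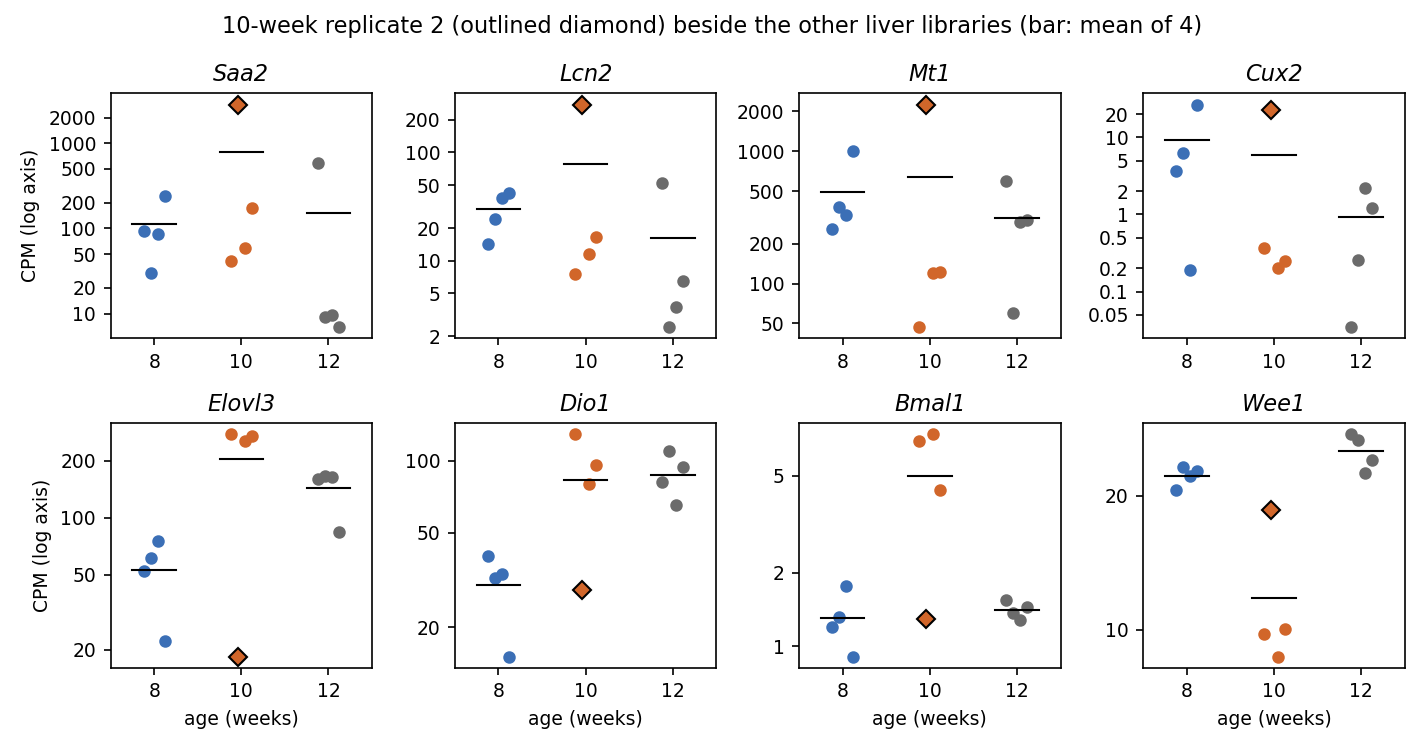
CPM per library on log axes at 8, 10 and 12 weeks for 8 genes, with the mean of 4 libraries as a bar. The outlined diamond, 10-week replicate 2, is the highest library for Saa2, Lcn2 and Mt1, the lowest for Elovl3, and lies within the 8-week range for Bmal1 and Dio1.

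Of the genes of thyroid hormone handling, Dio1 had 10-week replicate 2 beside the 8-week libraries, while Trhde and Klf9 did not overlap between ages. Dio1, the deiodinase that activates thyroxine in liver, held 39.7, 32.1, 33.4 and 15 CPM at 8 weeks and 129, 28.6, 80.2 and 95.7 CPM at 10 weeks. It rose by 1.76 ± 0.28 without replicate 2 (adjusted p = 0.0187), against 1.47 ± 0.38 with all libraries (adjusted p = 0.145). Trhde, which degrades thyrotropin-releasing hormone, was scarce, at 0.192 to 0.430 CPM at 8 weeks and 0.604 to 3.43 CPM at 10 weeks, without overlap. It rose by 2.87 ± 0.50 without replicate 2 (adjusted p = 0.029) and changed by 2.57 ± 0.57 with it (adjusted p = 0.117). Klf9, a transcription factor induced by thyroid hormone and glucocorticoids, held 164 to 213 CPM and 218 to 276 CPM (0.51 ± 0.13, adjusted p = 0.147). Of the 11 genes of the list 8 were higher, and 3 of 11 did not overlap, against 4.58% of all genes. For 1 of the 11, 10-week replicate 2 was the lowest of the 8 libraries. The median was 0.21, or 0.14 without 8-week replicate 4.

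In glucose metabolism Gys2 was the only gene of 22 that passed with all libraries. Of the 22, 18 were lower at 10 weeks, with a median of -0.33, and 2 did not overlap, against 5.08% of all genes. The insulin receptor Insr fell by 0.48 ± 0.10 without replicate 2 (adjusted p = 0.0483) and changed by -0.37 ± 0.11 with it (adjusted p = 0.163). Amino acid catabolism was lower in 27 of 33 genes, with a median of -0.14 (-0.06 without 8-week replicate 4). Of the 33, 5 were lower without overlap, against 5.08% of all genes, but none passed. Ahcy, which clears S-adenosylhomocysteine, held 2024 to 2955 CPM at 8 weeks and 1619 to 1802 CPM at 10 weeks (-0.50 ± 0.14, adjusted p = 0.149).
Along the lobule, 19 of 23 pericentral genes were higher (median 0.25, 5 higher and 1 lower without overlap). Of 18 periportal and urea cycle genes, 14 were lower (median -0.30, 1 without overlap). Over all genes, 4.58% were higher and 5.08% lower without overlap. Neither list had a member past the test with all libraries. The pericentral median was 0.41 without 8-week replicate 1 and 0.40 without 10-week replicate 4, and the periportal median -0.16 without 8-week replicate 4. Lect2, a secreted chemotactic protein, held 18.6, 16.3, 19.2 and 18 CPM at 8 weeks and 26.9, 26.8, 34.9 and 29.3 CPM at 10 weeks. It changed by 0.71 ± 0.13 (adjusted p = 0.0792) and rose by 0.75 ± 0.14 without replicate 2 (adjusted p = 0.0328). Cyp2c29, a cytochrome P450 of arachidonic acid and drug metabolism, stood at 714 to 1172 and 1374 to 1941 CPM (0.71 ± 0.16, adjusted p = 0.117). Asl, the urea cycle enzyme that splits argininosuccinate, stood at 847 to 1363 and 524 to 755 CPM (-0.84 ± 0.23, adjusted p = 0.149). Ctsc, a lysosomal protease of the periportal list that macrophages also express, was higher (0.80 ± 0.21, adjusted p = 0.145).

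Macrophage markers were higher in each of the 14 genes tested, and 9 of 14 did not overlap between ages, against 4.58% of all genes. Their median was 0.70 with all libraries and 0.55 without 10-week replicate 2. None passed edgeR's test in either fit, and 5 passed DESeq2's. The 14 markers summed to 169 to 359 CPM at 8 weeks and to 405 to 632 CPM at 10 weeks, with replicate 2 the highest and 8-week replicate 4 the lowest. At 12 weeks the sum was 226 to 260 CPM. The hepatocyte markers gave a lower sum in 3 of the 10-week libraries than in all 8-week libraries, as above, but Alb alone reached 95907 CPM in it. As a mean over that list, the 8-week libraries lay -0.11, -0.14, -0.02 and 0.27 from the 8-week mean on the log2 scale. The 10-week libraries lay at -0.17, 0.15, -0.11 and -0.17, so that the ages overlapped. More macrophages and more of these RNAs per macrophage cannot be told apart in whole tissue. Cd5l, a protein that macrophages secrete, held 57.9, 57.4, 60.4 and 26.2 CPM at 8 weeks and 90.1, 111, 76.8 and 79.2 CPM at 10 weeks (0.82 ± 0.21, adjusted p = 0.143). Folr2, a folate receptor of resident macrophages, stood below 1 CPM throughout, at 0.144 to 0.279 and 0.484 to 0.966 CPM (1.56 ± 0.33, adjusted p = 0.117).
All 8 genes of MHC class II presentation were higher, with a median of 0.73, and none passed. Of the 8, 6 did not overlap, against 4.58% of all genes. Cd74, the invariant chain, held 22.1, 26.4, 28.8 and 19.2 CPM at 8 weeks and 58.5, 43.5, 40.2 and 38.6 CPM at 10 weeks (0.90 ± 0.22, adjusted p = 0.124). H2-DMa, which helps load peptides, held 0.716 to 1.90 and 2.56 to 3.67 CPM (1.14 ± 0.27, adjusted p = 0.125). The list's highest library was replicate 1 on average (1.05 above the 8-week mean on the log2 scale), not replicate 2 (0.68). Mesothelial markers, of cells that cover the organ's surface, went the other way: all 5 were lower, and none passed. Of these 5 markers, 3 did not overlap, against 5.08% of all genes. Their summed level was 6.82 to 12.7 CPM at 8 weeks and 1.87 to 5.45 CPM at 10 weeks. Upk1b and Msln, both surface proteins of mesothelium, changed by -2.21 ± 0.53 and -2.03 ± 0.56 (adjusted p = 0.126 and 0.149).

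**Figure D5:**
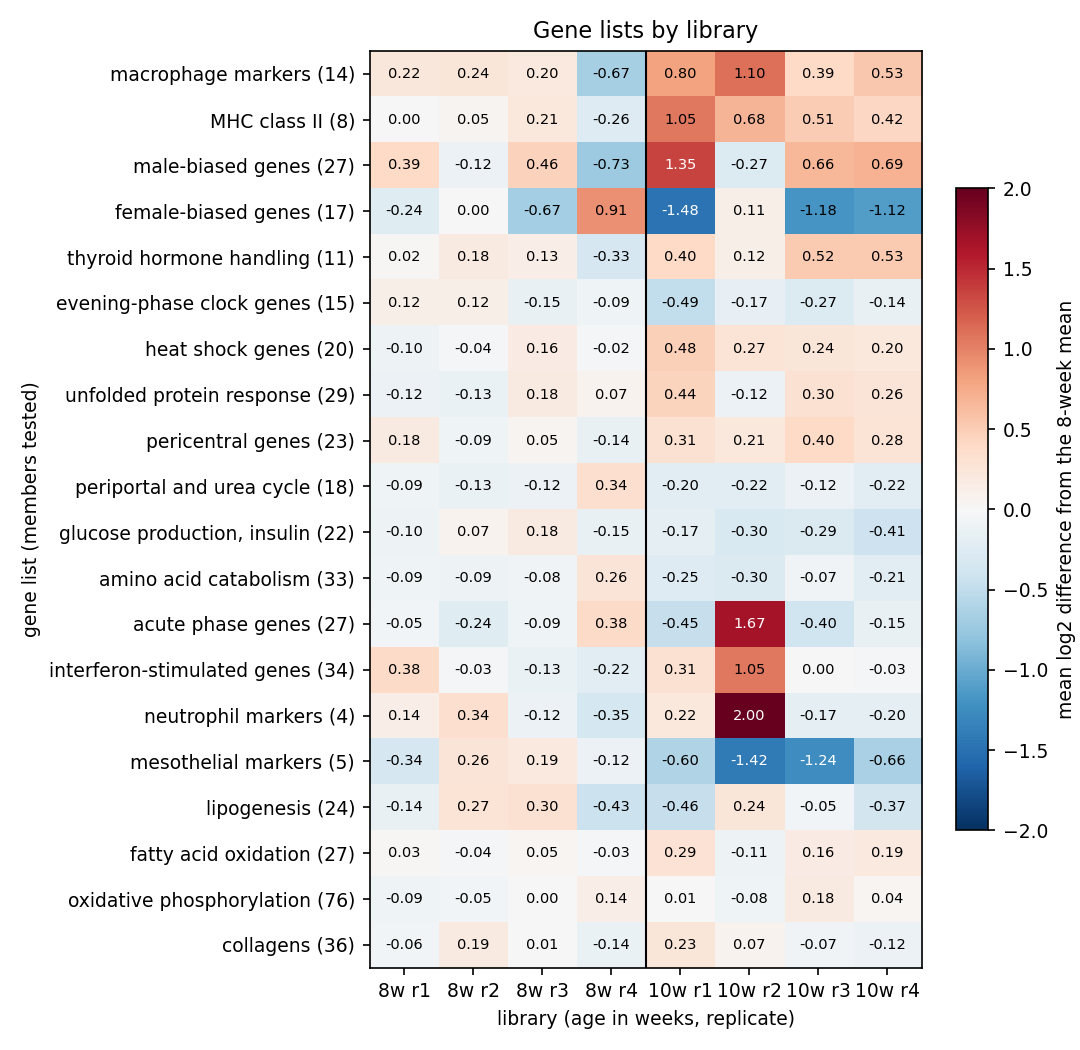
Mean log2 difference of each gene list (vertical axis, with the number of members tested) from its 8-week mean in each of the 8 libraries (horizontal axis), red for higher and blue for lower. Macrophage markers and MHC class II genes are above 0 in all 10-week libraries, while acute phase genes (1.67) and neutrophil markers (2.00) are high in 10-week replicate 2.

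The acute phase genes marked 10-week replicate 2. It was the highest of the 8 libraries for 24 of 27 members, and their summed level was 43916 CPM there against 14144 to 16039 CPM in the other 10-week libraries and 14209 to 23209 CPM at 8 weeks. Saa2, a serum amyloid A protein, held 93.6, 29.8, 85.0 and 239 CPM at 8 weeks and 41.2, 2843, 59.2 and 174 CPM at 10 weeks. Among the 12-week libraries, replicate 1 held 589 CPM and the others 6.94 to 9.71 CPM. Lcn2, an iron-sequestering protein of the response, held 14.4 to 42 CPM at 8 weeks and 7.51, 276, 11.5 and 16.5 CPM at 10 weeks. Mt1, a metal-binding protein, held 259, 379, 332 and 1007 CPM at 8 weeks and 46.9, 2245, 120 and 122 CPM at 10 weeks. With the other 3 libraries alone, its log2 fold change was -2.36 ± 0.68 (adjusted p = 0.118), against 0.36 ± 1.01 with all. Steap4, a metalloreductase, and Il1r1, the interleukin-1 receptor, held 1026 and 281 CPM in replicate 2, against 164 to 221 and 109 to 118 CPM in the other 10-week libraries. The median of the list was 0.39 with replicate 2 and -0.21 without it, and no member passed in either fit.
Interferon-stimulated genes were likewise highest in replicate 2 for 28 of 34 members, and their median was 0.41 with it and 0.10 without it. None passed. Bst2, which tethers budding viruses, held 95.4 to 104 CPM at 8 weeks and 116 to 164 CPM at 10 weeks (0.40 ± 0.12, adjusted p = 0.159). Gbp3, an interferon-induced GTPase, held 3.48 to 5.75 CPM at 8 weeks and 7.91, 17.5, 7.13 and 4.47 CPM at 10 weeks (1.04 ± 0.36, adjusted p = 0.224), and its change was 0.52 ± 0.28 without replicate 2 (adjusted p = 0.387). The 10 neutrophil markers summed to 18.4 CPM in replicate 2 and to 1.91 to 4.63 CPM in the other 7 libraries. S100a8 held 4.86 CPM in replicate 2, against at most 0.816 CPM in the others. Only 4 of the 10 markers were tested with all libraries, with a median of 1.28. Without replicate 2 only 3 of them passed the count filter, with a median of -0.33. These medians therefore rest on different sets of few genes and are not directly comparable. Sgk2, a serine/threonine kinase, was among the genes furthest below the other 10-week libraries in replicate 2, at 21.9 CPM against 76.9 to 91.5 CPM. The part of inflammation in the other values of this library was not tested.

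Chaperones were higher in part. Of 20 heat shock genes 16 were higher, with a median of 0.27, and 5 of 20 did not overlap, against 4.58% of all genes. Stip1 and Fkbp4, co-chaperones of HSP90, held 28.4 to 35.2 and 104 to 114 CPM at 8 weeks and 60.8, 37.6, 52.1 and 49 and 210, 119, 166 and 158 CPM at 10 weeks. They rose by 0.73 ± 0.12 and 0.71 ± 0.11 without replicate 2 (adjusted p = 0.0218 and 0.0184), and with all libraries the adjusted p was 0.118 and 0.122. Hsp90aa1, the inducible HSP90, held 122 to 147 CPM and 194 to 358 CPM without overlap (0.89 ± 0.34, adjusted p = 0.262). Of 29 genes of the unfolded protein and integrated stress responses 22 were higher (median 0.24, or 0.37 without 8-week replicate 3 and 0.15 without 10-week replicate 1). Of the 29, 3 higher and 1 lower did not overlap, against 4.58% and 5.08% of all genes. Sdf2l1, a chaperone of the endoplasmic reticulum, held 15 to 29.5 CPM at 8 weeks and 80.8, 21.3, 46.5 and 38.9 CPM at 10 weeks, and it rose by 1.33 ± 0.25 without replicate 2 (adjusted p = 0.0376). Its change was 1.08 ± 0.31 with all libraries (adjusted p = 0.165) and 0.68 without 10-week replicate 1. Atf5, a transcription factor of mitochondrial stress, and Gdf15, a stress cytokine, did not overlap between ages and changed by 0.72 ± 0.18 and 1.97 ± 0.57 (adjusted p = 0.132 and 0.163).

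The medians of the lists of lipid metabolism were 0.06 for 27 genes of fatty acid oxidation, -0.04 for 24 of lipogenesis, 0.19 for 24 of cholesterol synthesis and uptake, and -0.04 for 24 of bile acid synthesis and transport, with at most 3 members of any list without overlap. Lipogenesis depended on 10-week replicate 2. Its 24 genes summed to 15498 to 22715 CPM at 8 weeks, 23058 CPM in that library and 8635 to 15255 CPM in the other 10-week libraries, and without it the median was -0.25, with 7 of 24 genes higher. Without the same library the median of fatty acid oxidation was 0.14, with 24 of 27 genes higher. The medians of all 4 lists moved by more than 1.5 times when single other libraries were left out, to between 0.04 and 0.12 for fatty acid oxidation, -0.15 and 0.13 for lipogenesis, 0.07 and 0.33 for cholesterol synthesis and uptake, and -0.06 and -0.002 for the bile acid genes. Insig2, which holds the cholesterol sensor in the endoplasmic reticulum, held 86.0, 90.8, 115 and 76.4 CPM at 8 weeks and 200, 129, 254 and 240 CPM at 10 weeks, without overlap. It changed by 1.16 ± 0.26 (adjusted p = 0.117) and rose by 1.33 ± 0.24 without replicate 2 (adjusted p = 0.0322). Hmgcs1 and Sc5d, enzymes of cholesterol synthesis, changed by 1.12 ± 0.36 and 0.71 ± 0.18 (adjusted p = 0.197 and 0.145). Cpt1a, the gate of fatty acids into mitochondria, held 508 to 568 CPM at 8 weeks and 368, 455, 371 and 381 CPM at 10 weeks (-0.43 ± 0.11, adjusted p = 0.147). Etfb, an electron carrier of fatty acid oxidation, changed by 0.66 ± 0.16 at 2.00 to 3.6 CPM (adjusted p = 0.132). Elovl6, a lipogenic elongase, held 110 to 515 and 105 to 194 CPM (-1.24 ± 0.45, adjusted p = 0.237). Of the bile acid genes, Slc10a1, the uptake carrier of the sinusoidal membrane, held 656 to 1030 and 507 to 649 CPM (-0.52 ± 0.16, adjusted p = 0.176), and Abcb4, which exports phosphatidylcholine into bile, changed by 0.57 ± 0.21 (adjusted p = 0.245). Car3, an abundant carbonic anhydrase, held 939 to 1520 and 1542 to 2755 CPM (0.72 ± 0.20, adjusted p = 0.152).
Medians lay near 0 for 76 nuclear genes of oxidative phosphorylation (0.02), 76 cytosolic ribosomal proteins (0.04), 36 genes of collagens and their processing (-0.004) and 14 stellate cell and fibroblast markers (0.002). In the last 2 lists at most 1 member in each direction did not overlap between ages, against 4.58% higher and 5.08% lower of all genes. Of the other cell type markers, 10 of 12 sinusoidal endothelial genes were higher (median 0.28, or 0.12 without 8-week replicate 4), and 5 of 6 cholangiocyte genes tested were higher, with a sum of 18.8 to 25.8 CPM at 8 weeks and 27.7 to 37.1 CPM at 10 weeks. In that sum Spp1 alone reached 28.6 CPM, while Krt7, Krt19 and Epcam reached at most 1.81 CPM. The 12 T and natural killer cell markers, of which 4 were tested, summed to 2.82 to 3.36 and 3.82 to 4.97 CPM. Among them Cd4 reached 2.06 CPM, and Cd3e, Cd3d and Cd3g at most 0.453 CPM. None of these lists had a member past the test.

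Among the remaining genes that passed without 10-week replicate 2, several also lay apart in all 4 libraries. They were picked for description after their values were seen. Alpl, the tissue-nonspecific alkaline phosphatase, held 22, 25, 28.8 and 24 CPM at 8 weeks and 11.2, 14.1, 10.7 and 10.7 CPM at 10 weeks. It changed by -1.10 ± 0.17 (adjusted p = 0.0583) and fell by 1.2 ± 0.17 without replicate 2 (adjusted p = 0.0123). Uox, the urate oxidase, held 3706, 3324, 3438 and 3982 CPM at 8 weeks and 2094, 2773, 2488 and 2089 CPM at 10 weeks, and it changed by -0.61 ± 0.11 (adjusted p = 0.0792) and fell by 0.70 ± 0.11 without replicate 2 (adjusted p = 0.0163). Slc38a2, a transporter of neutral amino acids, changed by -0.78 ± 0.15 (adjusted p = 0.0933) and fell by 0.86 ± 0.16 without it (adjusted p = 0.0372). Id3, an inhibitor of basic helix-loop-helix factors that BMP signals induce, held 13.4, 9.31, 9.12 and 9.5 CPM at 8 weeks and 19.1, 37.6, 39.6 and 21.2 CPM at 10 weeks. It changed by 1.5 ± 0.24 (adjusted p = 0.0583) and rose by 1.36 ± 0.24 without replicate 2 (adjusted p = 0.0301). Id1 and Smad7, a further pair of BMP target genes, changed by 1.17 ± 0.35 and 0.73 ± 0.21 (adjusted p = 0.175 and 0.164), and Id1 by 0.74 without 10-week replicate 3. They did not pass without replicate 2 either (adjusted p = 0.175 and 0.199), and Smad7 overlapped between ages.
Hes1, a repressor downstream of Notch, changed by 0.87 ± 0.14 (adjusted p = 0.0583) and rose by 0.91 ± 0.15 without replicate 2 (adjusted p = 0.025), from 4.92 to 5.63 CPM at 8 weeks to 8.13 to 11.2 CPM at 10 weeks. Arrdc3, an arrestin-like regulator of receptors and a target of FOXO factors, held 58.7, 39.4, 36.6 and 39.0 CPM at 8 weeks and 254, 141, 457 and 123 CPM at 10 weeks, and it changed by 2.49 ± 0.48 (adjusted p = 0.0933) and rose by 2.68 ± 0.49 without replicate 2 (adjusted p = 0.0332). Serpina1c, an antitrypsin of a family of near-identical copies, held 357 to 384 and 487 to 547 CPM (0.46 ± 0.07, adjusted p = 0.0583, or 0.0301 without replicate 2). Apoa2, an apolipoprotein of HDL, held 306 to 380 and 458 to 506 CPM (0.44 ± 0.09, adjusted p = 0.0996). Apoa2 did not overlap between ages, but it did not pass without replicate 2 either (adjusted p = 0.0667). Serpina1c was back at 377 to 404 CPM at 12 weeks, while Apoa2 stayed at 463 to 527 CPM.

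The change from 8 to 10 weeks was set against that of kidney and of heart with an interaction term. It differed from kidney for 11 of 18362 genes (6 with a larger value in liver, 0.0327%, and 5 with a smaller one, 0.0272%) and from heart for 255 of 16854 (91, 0.54%, and 164, 0.973%). Without 10-week replicate 2 the counts were 103 and 468, and with only the 16 libraries of 8 and 10 weeks of the 2 organs compared they were 1 and 64. The 1 gene that differed from kidney with 16 libraries was mt-Co2, by -2.11 (adjusted p = 4.6e-06, edgeR interaction term). With 36 libraries its difference was -2.10 (adjusted p = 0.146). None of the differences from kidney given below passed with 16 libraries. In heart itself, RNA of hepatocyte genes was seen at 10 weeks. The 15 hepatocyte markers summed to 0.603, 0.627, 1.08 and 0.780 CPM in the 8-week heart libraries and to 2.17, 24.5, 1.90 and 31.5 CPM in those of 10 weeks, and 6 of the 15 were among the 164 genes with a smaller value in liver. The part of these heart libraries in the differences from heart was not tested. Espn, which bundles actin, held 0.716 to 2.00 CPM in liver at 8 weeks and 0.243 to 0.370 CPM at 10 weeks. Its change in liver was 2.08 ± 0.35 lower than in kidney and 2.60 ± 0.37 lower than in heart on the log2 scale (adjusted p = 0.0112 and 0.000367). Gpr155, a lysosomal cholesterol sensor, held 51.9 to 56.3 CPM in liver at 8 weeks and 25.6 to 34.7 CPM at 10 weeks, and its change was lower than in kidney (-0.98 ± 0.18, adjusted p = 0.0232). Dlgap1, a scaffold protein, held 2.79 to 3.27 and 0.845 to 1.86 CPM in liver, against 0.196 to 0.364 and 0.487 to 1.78 CPM in kidney (difference -2.90 ± 0.47, adjusted p = 0.0112). Erbb4, a receptor of neuregulins, held 1.72 to 3.81 CPM at 8 weeks, 4.56 to 6.52 CPM at 10 weeks and 8.62 to 13.3 CPM at 12 weeks in liver. Its change was larger than in kidney by 1.23 ± 0.23 and than in heart by 1.08 ± 0.24 (adjusted p = 0.0268 and 0.0171).
Tnk2, a non-receptor tyrosine kinase, and Scamp1, a protein of secretory vesicles, also differed from both organs. With 16 libraries the differences of Erbb4, Tnk2 and Scamp1 from heart had adjusted p of 0.099, 0.0528 and 0.0832. Tnk2 held 14.8 to 17.6 CPM at 8 weeks and 21.6 to 36.5 CPM at 10 weeks in liver, and Scamp1 held 84.9 to 87.5 and 50.4 to 70.2 CPM. Cyp2e1, an ethanol-oxidising P450, had the smallest interaction p against heart. In liver it stood at 7090 to 7649 CPM at 8 weeks and 5455 to 8098 CPM at 10 weeks (-0.10 ± 0.12, adjusted p = 0.758). The difference of -3.53 ± 0.43 (adjusted p = 3.94e-05) came with heart levels of 0.0390 to 0.270 CPM at 8 weeks and 1.09, 0.843, 1.05 and 2.36 CPM at 10 weeks. In the same order, the hepatocyte marker sums of the 10-week heart libraries were 2.17, 24.5, 1.90 and 31.5 CPM. The highest Cyp2e1 level was thus in the library with the highest sum, and the lowest in replicate 2, with a sum of 24.5 CPM.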

How the data were processed

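RNA of whole liver from 4 mice per age was sequenced in pairs. The authors checked the reads with FastQC 0.11.9, trimmed them with cutadapt 4.2, and aligned them to GRCm39 with STAR 2.7.11b, which gave the deposited gene counts. The unstranded column of these raw counts was used, and rows that name no gene were left out. Such rows (pairs multimapping, unmapped, ambiguous or outside genes) made up 21.2% to 25.2% of the pairs at 8 weeks and 25.6% to 31.4% at 10 weeks. Names came from GENCODE vM39 of the same build, which matched 78168 of 78239 identifiers. Genes needed a mean count of 10 and at least 2 libraries above 0 at 8 or 10 weeks. The 12 liver libraries were fitted by age with edgeR 4.0.16 (TMM factors, quasi-likelihood test, Benjamini-Hochberg adjustment, threshold 0.05), so that 12 weeks contributed to the estimate of the spread. Kidney and heart entered an interaction term over 36 libraries. DESeq2 1.42.0, limma 3.58.1 and other settings were run beside it, and the fit was tested on simulated data. Components used log2 CPM with a prior count of 2, and list deviations used log2(CPM + 0.5).

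The genes named were those without overlap among the called, up to 4 members of each list past the test or otherwise the 2 with the smallest p, the 3 smallest interaction p per organ, the 5 genes where 10-week replicate 2 lay furthest above and below its group, and markers. The comparison, lists and genes were chosen with earlier results of these data known, and several genes were added after their values were seen. Samples were not paired by replicate number in the main fit. Deviations of same-numbered libraries from the mean of their age correlated at 0.170, 0.0737, 0.0349 and -0.0474. Whether matching numbers mark a shared batch was not tested. Several genes that this rule names are not reported here.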

Additional observations from a re-analysis of the deposited data

Results flagged for a closer look

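Among 150 groups of 4 libraries, 24 held a library set apart from the other 3 by Dixon's criterion at 95%. The usual chance rate of about 1 in 20 does not apply to this count, because genes were picked partly for the distance of 10-week replicate 2 from its group or after their values were seen. In 13 of these it was 10-week replicate 2. That library lay above the other 10-week libraries for Saa2 (2843 CPM), Mt1 (2245 CPM), Steap4 (1026 CPM), Cpt1a (455 CPM), Il1r1 (281 CPM), Lcn2 (276 CPM), Elovl6 (194 CPM), Nipal1 (38 CPM), Cux2 (23 CPM), Wee1 (18.6 CPM), Alpl (14.1 CPM) and S100a8 (4.86 CPM). It lay below them for Elovl3 (18.4 CPM). In 5 groups it was 8-week replicate 4, above the others for Mt1 (1007 CPM), Klf9 (213 CPM) and Cyp2a4 (18.9 CPM) and below them for Cd5l (26.2 CPM) and Smad7 (9.69 CPM). The others were 8-week replicate 1 for Sc5d (352 CPM), Arrdc3 (58.7 CPM), Id3 (13.4 CPM) and Etfb (2.35 CPM), 8-week replicate 2 for Gys2 (285 CPM), and 10-week replicate 1 for Mup11 (779 CPM).

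The change from 8 to 10 weeks differed between liver and kidney in the interaction test (edgeR, adjusted p under 0.05) for several of the genes named. Liver minus kidney on the log2 scale was 2.26 for Folr2, 2.16 for Arrdc3, 1.23 for Erbb4, 1.17 for Insig2, 0.88 for Tnk2, -0.60 for Scamp1, -0.98 for Gpr155, -2.08 for Espn and -2.90 for Dlgap1. None of these passed when only the 16 libraries of 8 and 10 weeks of the 2 organs were fitted. Liver minus heart was 4.13 for Gm28661, 2.7 for Arrdc3, 1.68 for Id3, 1.08 for Erbb4, 1.05 for Cd74, 1.04 for Insig2, 0.96 for Tnk2 and 0.79 for Hes1. It was -0.47 for Scamp1, -0.92 for Gpr155, -0.94 for Slc38a2, -1.42 for Alpl, -2.60 for Espn and -3.53 for Cyp2e1. With 16 libraries the differences from heart of Erbb4, Insig2, Tnk2, Scamp1, Gys2 and Uox did not pass. The 10-week heart libraries 2 and 4 held hepatocyte marker RNA (24.5 and 31.5 CPM over 15 markers, against at most 2.17 CPM in the other 6 heart libraries of these ages). Liver minus heart was -4.76 for Gys2 and -5.44 for Uox, which stood at or near 0 in heart, so that these values depend on the prior count. It was -5.00 for Msln and -5.79 for Upk1b, and Msln held 0.314 to 1.71 CPM in heart at 8 weeks and 2.48 to 11.4 CPM at 10 weeks.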

How the results depend on the processing

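Gm28661 and Gys2 passed in all 21 other settings, of which 3 were chosen after seeing the data. Genes past the adjusted p numbered 192 higher and 175 lower with DESeq2 (55 and 46 called), 218 and 132 without the count filter (82 and 51 called), and 236 and 280 with limma-voom and quality weights (57 and 84 called). DESeq2 without 10-week replicate 2 gave 340 and 328 (96 and 100 called). The 8 libraries alone gave 4 lower (2 called), counts of the first strand 8 higher (4 called), and edgeR with robust spread 2 lower (1 called). The replicate block gave 2 lower, and replicates 1, 2 and 3 but not 4 correlated best with their own number. When 1 of the 8 libraries was left out, 1 to 55 genes passed higher and 1 to 34 lower, and 1 to 25 were called higher and 0 to 11 lower. Each maximum belongs to the fit that lacked 10-week replicate 2. Without 8-week replicate 1, 8-week replicate 3 or 10-week replicate 3, 1 gene passed higher. Differences from kidney numbered 1 with 16 libraries and 103 without 10-week replicate 2, and those from heart 64 and 468. The causes were not tested.

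None of the 3 genes past the test changed direction in these settings. Without 10-week replicate 2 the log2 fold change turned to -1.32 for Lcn2, -2.36 for Mt1, -0.33 for S100a8, -0.29 for Saa2, 0.003 for Cyp2e1 and 0.0055 for mt-Co2, and with DESeq2 in addition to -1.33, -2.36, -0.30, -0.29, 0.0054 and 0.007. With limma-voom it was -0.12 for Hsd3b5, -0.041 for Lcn2 and -1.12 for Mt1, and with quality weights -0.63 for Lcn2, -1.60 for Mt1, -0.11 for S100a8 and 0.016 for mt-Co2. It was -0.78 for Mt1 under the replicate block, 0.79 for Cux2 without 8-week replicate 4, -0.0801 for Hsd3b5 without 10-week replicate 1, and 0.0094 and 0.071 for mt-Co2 without the count filter and without 8-week replicate 1. Over the fits that left out 1 library, the ranges were -5.07 to 0.79 for Cux2, -0.18 to 0.003 for Cyp2e1, -0.0801 to 0.53 for Hsd3b5, -1.32 to 1.77 for Lcn2, -2.36 to 0.97 for Mt1, -0.33 to 1.69 for S100a8, -0.29 to 3.49 for Saa2 and -0.086 to 0.071 for mt-Co2. Of the list medians, 1050 moved by less than the spread and 20 by more.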
